A study of Mus musculus with 6 samples.

Results

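The genes described here encode the enzymes and carriers of glycolysis, of fructose entry and of the pentose phosphate pathway. The members are 33 gene symbols, from Hk1 to Pfkfb4, chosen by name with earlier results of these data known. Every row of the deposited table with one of those symbols was taken. They gave 34 of 27761 rows, because the symbol Aldoa stands on 2 rows. All 34 rows passed the filter on low values, an FPKM (a read level scaled by transcript length and by the mapped reads of the library) of at least 1 in at least 3 libraries.

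The messenger RNA came from bone marrow B220+ cells of mice, a fraction defined by a form of the surface protein CD45 that cells of the B lineage carry. There were 3 libraries labelled PELI2 knockout, which are titled CKO, and 3 libraries labelled WT. Strain, age, sex, the driver of the deletion and the allele are not given in the sources used here, nor do they state whether the replicates are different mice. The p-values therefore reflect no more than the spread between these libraries, which may be technical. The steps between low values put the depth at 17020000 to 18030000 reads in libraries labelled PELI2 knockout and 16600000 to 17790000 reads in the WT libraries.

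Peli2, a ubiquitin ligase that acts downstream of Toll-like receptors, had 3.07, 2.70 and 2.47 FPKM in libraries labelled PELI2 knockout, against 2.03, 2.54 and 1.99 FPKM in WT. The ranges overlapped, and the higher mean was on the knockout side. Its mean difference was 0.556 FPKM, with p = 0.2 by an exact permutation test over the 6 libraries (two-sided), for which 0.1 is the smallest p that 3 against 3 allows. Besides that of Peli2, this row carries an Entrez ID that belongs to Gm6498, a pseudogene of Gapdh within the Peli2 locus (chromosome 14, 48227201 to 48228206). The row's values do not separate the groups, and all directions given here follow the label.

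Glycolysis breaks glucose down to pyruvate in the cytosol and makes ATP on the way, and lactate dehydrogenase can turn the pyruvate into lactate for export. The pentose phosphate pathway branches off after the first step. Its oxidative arm makes NADPH, which cells spend on lipid synthesis and on defence against oxidants, and its non-oxidative arm makes ribose phosphate for nucleotides. Fructose enters by another kinase, past the step at which phosphofructokinase controls the flow. In bone marrow, dividing B-cell precursors take up much glucose, neutrophils burn it largely by glycolysis and use NADPH for the oxidative burst, and mature red cells have no other source of ATP.

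Most of these genes had somewhat higher levels in libraries labelled PELI2 knockout, and G6pdx, Hk3, Ldhb, Hk1 and Khk had the largest differences. None of the 34 rows passed the threshold of an adjusted p under 0.05 (limma on log2(FPKM + 1), Benjamini-Hochberg adjustment over 12953 genes), where 0.0232% of all tested genes were called higher and 0% lower. The 3 genes called were Sva, Igkv3-10 and Srp54, which are not members and are named with their values known. With an unadjusted p under 0.05 there were 15 member rows higher and 2 lower, against 9.2% and 8.88% of all tested genes. With an adjusted p under 0.1 there were 2 member rows, Khk and G6pdx, against 0.263% of all tested genes. The mean was higher in libraries labelled PELI2 knockout for 30 rows and lower for 4, where 46.4% of all tested genes had a higher mean. The groups did not overlap for 16 rows that were higher and 3 that were lower, against 11.5% and 14.3% of all tested genes. The median log2 difference was 0.18 over the member rows, with a range of -0.25 to 0.65, and -0.01 over all tested genes. The members were chosen with earlier results known, so these counts describe the list and do not test it.

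Rescaling every library to a common FPKM total changed the balance of the background. It left 726 genes higher and 2331 lower with an unadjusted p under 0.05, against 1192 and 1150 without it, and shifted the median of all tested genes to -0.09 on the log2 scale. In that setting 12 member rows were higher and 2 lower, with a median of 0.13. The sums of FPKM behind this rescaling were 331189 to 338098 in libraries labelled PELI2 knockout and 309301 to 323155 in WT.

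**Figure D1:**
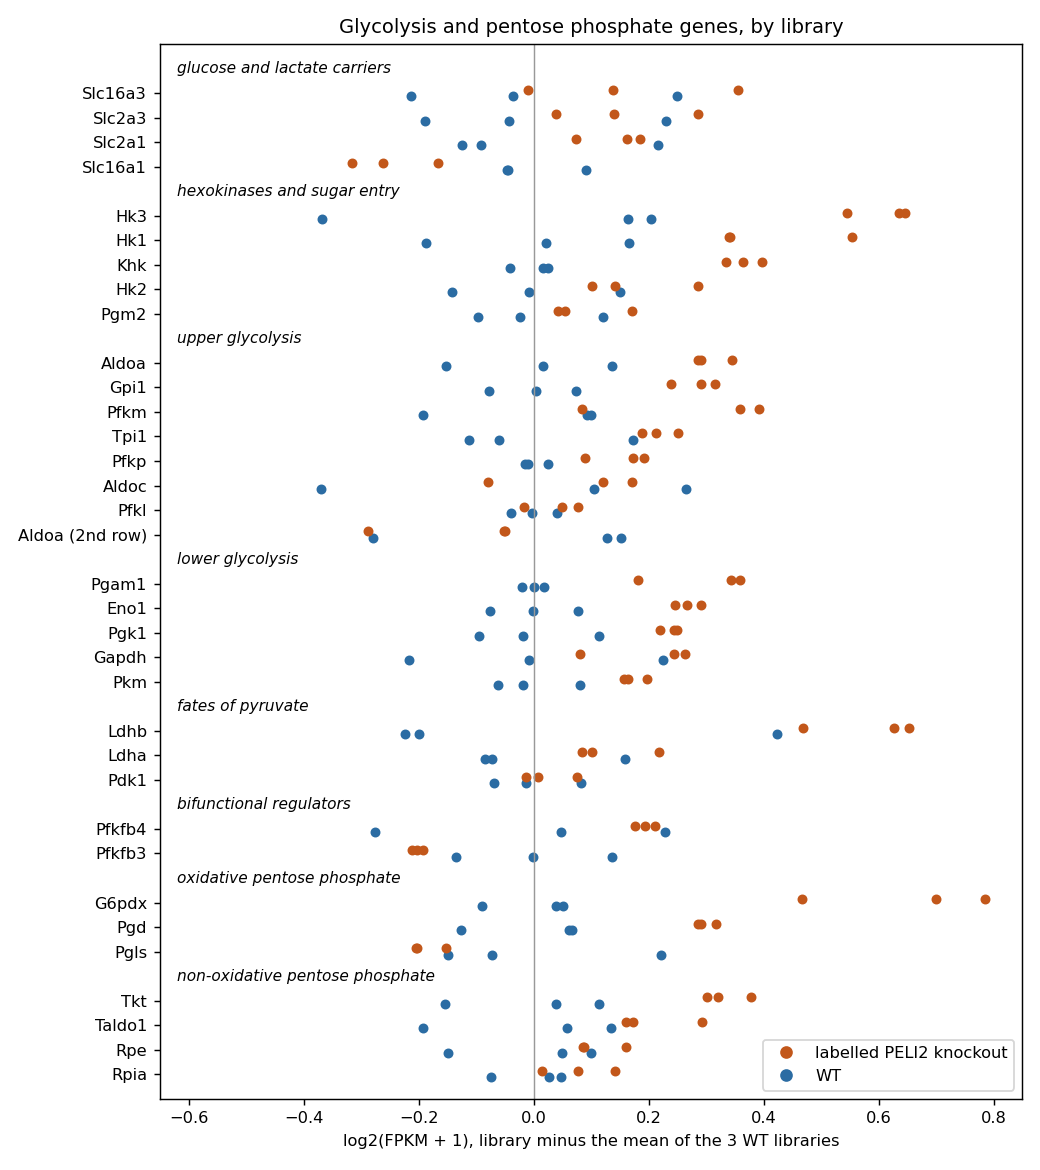
Each point is the log2(FPKM + 1) of a library minus the mean of the 3 WT libraries, for the 34 rows grouped by role, with libraries labelled PELI2 knockout in orange and WT in blue. The medians over the rows are 0.17, 0.17 and 0.24 in libraries labelled PELI2 knockout, against -0.08, 0.01 and 0.05 in WT, and Slc16a1, Pfkfb3 and Pgls are the rows with all orange points left of all blue ones.

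**Figure D2:**
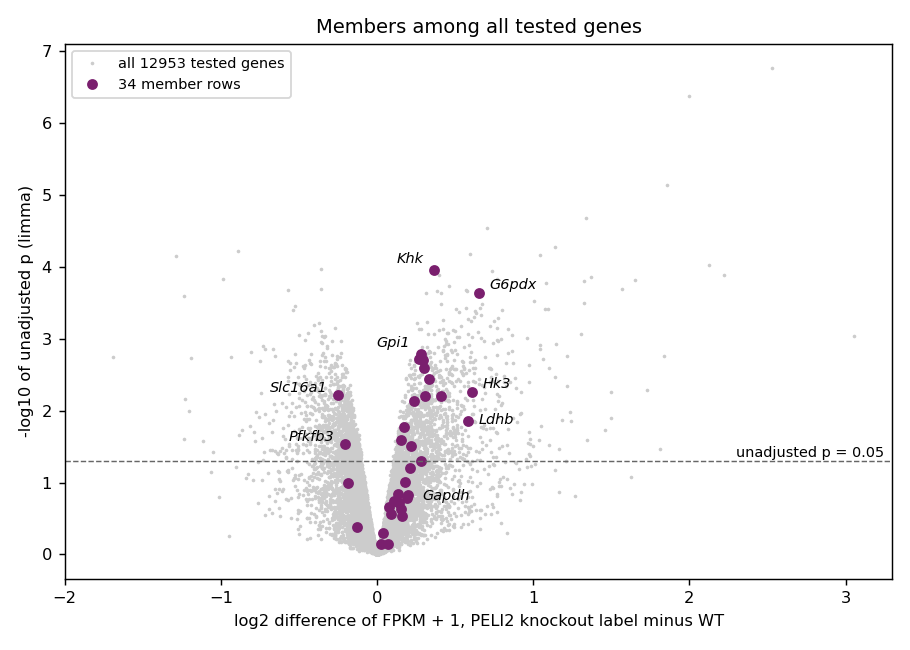
The horizontal axis is the log2 difference (libraries labelled PELI2 knockout minus WT) and the vertical axis the -log10 of the unadjusted p from limma, for all 12953 tested genes in grey and the 34 member rows in purple. Above the dashed line at an unadjusted p of 0.05, 15 purple points lie on the right and 2, Slc16a1 and Pfkfb3, on the left.

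The members did not stand equally high in every library. Against the WT mean, 28, 29 and 29 of the 34 rows stood higher in libraries labelled PELI2 knockout, and 10, 18 and 22 rows in WT replicates 1 to 3. WT replicate 1 was the lowest WT library for 22 rows and the highest for 5, where it was the lowest for 37.7% and the highest for 34.1% of all tested genes. Without WT replicate 1 the median log2 difference of the members was 0.14, with 15 rows higher and 1 lower with an unadjusted p under 0.05, against 6.65% and 5.98% of all tested genes in that fit.

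Markers of other marrow cells differed between the groups as well. The marker counts here and below are to be read beside all tested genes. Of those, 46.4% had a higher mean, and 9.2% were higher and 8.88% lower with an unadjusted p under 0.05 in limma. The 16 granulocyte markers all had a higher mean in libraries labelled PELI2 knockout, 11 of them with an unadjusted p under 0.05, and their summed FPKM was 11951.1 to 13978.4 there and 7504.2 to 10423.2 in WT. The 10 monocyte and macrophage markers all had a higher mean too, 6 of them at that threshold, with sums of 909.6 to 1134.6 in libraries labelled PELI2 knockout and 610.4 to 869.0 in WT. The 12 erythroid markers did the same, 7 at that threshold, with sums of 14267.8 to 18131.4 in libraries labelled PELI2 knockout and 9406.5 to 13680.7 in WT.

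On the other side, 11 of 13 B lineage markers had a lower mean, 7 of them with an unadjusted p under 0.05. Their sums were 3829.5 to 3832.2 in libraries labelled PELI2 knockout and 4435.4 to 5341.4 in WT, so B-lineage genes were present at high levels in all 6 libraries. These sums and those above rest mainly on S100a8 and S100a9 (granulocyte), Lyz2 (monocyte and macrophage), Hba-a1 and Hbb-bs (erythroid) and Ighm (B lineage). Of these, Lyz2, Hba-a1, Hbb-bs and Ighm had an unadjusted p of 0.0707 to 0.0962 in limma, and S100a8 and S100a9 one under 0.05. The sums of 8 plasmacytoid dendritic cell markers were 908.5 to 1018.8 in libraries labelled PELI2 knockout and 862.8 to 984.1 in WT. Of these markers 5 were higher at that threshold. Spib, the largest part of the sum, went the other way without overlap (unadjusted p = 0.0536, limma). It had 370.5, 372.7 and 339.9 FPKM in libraries labelled PELI2 knockout, against 554.5, 409.3 and 399.1 FPKM in WT. The sums of 7 plasma cell markers were 658.1 to 845.4 in libraries labelled PELI2 knockout and 651.7 to 716.6 in WT. With an unadjusted p under 0.05 in limma, 2 were higher, Xbp1 and Jchain, and 2 lower, Irf4 and Sdc1.

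The 9 T and NK cell markers summed to 99.04 to 124.3 in libraries labelled PELI2 knockout and 79.4 to 97.9 in WT. Of these 2 were higher, Nkg7 and Cd4. The other 6 tested markers overlapped between the groups, with lower means for Cd3d and Ncr1, and Cd3e stayed under the filter. No marker of these lists was at 0 in any library. The 10 proliferation markers summed to 663.7 to 715.2 in libraries labelled PELI2 knockout and 681.9 to 698.7 in WT, and 0 of them passed an unadjusted p of 0.05 in limma. WT replicate 1 held the lowest WT value of 16 granulocyte, 10 monocyte and 11 erythroid markers and the highest of 7 B lineage markers. The part of these cells in the member values was not tested. In bulk samples fewer cells of a type and less RNA per cell cannot be told apart.

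Among the kinases that trap sugar in the cell, Khk had the smallest p and Hk3 the largest difference. Khk (ENSMUSG00000029162, GRCm38 chromosome 5, 30921431 to 30931248) encodes ketohexokinase, which phosphorylates fructose. It had 19.7, 19.2 and 18.8 FPKM in libraries labelled PELI2 knockout, against 14.3, 14.96 and 14.9 FPKM in WT. The groups lay apart, with little spread within each. The log2 difference was 0.36 with a standard error of 0.045 (limma, adjusted p = 0.0908), and Khk held rank 13 by p among the tested genes.

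Hexokinases add a phosphate to glucose and so commit it to the cell. Hk3 (ENSMUSG00000025877, chromosome 13, 55005985 to 55021385), the isozyme known from myeloid cells, had 35.5, 37.9 and 38.2 FPKM in libraries labelled PELI2 knockout, against 18.4, 27.8 and 27.1 FPKM in WT. Its log2 difference was 0.61 (limma, adjusted p = 0.160), and WT replicate 1 lay well below the other WT libraries. Hk1, the widely expressed form that binds mitochondria, had 16.8, 19.7 and 16.9 FPKM in libraries labelled PELI2 knockout, against 11.4, 13.3 and 14.8 FPKM in WT, also without overlap (log2 difference 0.41, limma, adjusted p = 0.164). Hk2, the form induced by insulin and by growth signals, had 7.04, 6.82 and 7.88 FPKM in libraries labelled PELI2 knockout, against 5.61, 6.25 and 7.09 FPKM in WT, and these ranges overlapped.

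The make-up of the hexokinases differed slightly between the groups. Their summed FPKM was 59.4, 64.4 and 62.9 in libraries labelled PELI2 knockout, against 35.4, 47.4 and 49.0 in WT. Hk3 made up 59.8%, 58.9% and 60.7% of the sum in libraries labelled PELI2 knockout, against 52.0%, 58.7% and 55.3% in WT, the closest values of the groups lying next to each other. Hk2 made up 11.8%, 10.6% and 12.5% in libraries labelled PELI2 knockout, against 15.8%, 13.2% and 14.5% in WT, and Hk1 overlapped, at 26.8% to 30.6% in libraries labelled PELI2 knockout and 28.1% to 32.2% in WT. The Pgm2 row (ENSMUSG00000025791), whose Entrez ID RefSeq names Pgm1, encodes a phosphoglucomutase that links glycogen to glycolysis and overlapped between the groups at 6.48 to 7.18 FPKM in libraries labelled PELI2 knockout and 5.80 to 6.90 FPKM in WT.

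In upper glycolysis, which splits the sugar into triose phosphates, 4 of 8 rows were higher with an unadjusted p under 0.05 and 0 lower, against 9.2% and 8.88% of all tested genes. Gpi1, the isomerase that turns glucose phosphate into fructose phosphate, had 67.0, 70.7 and 69.5 FPKM in libraries labelled PELI2 knockout, against 53.6, 56.8 and 59.7 FPKM in WT (log2 difference 0.28, standard error 0.055, limma adjusted p = 0.142). Aldoa, the main aldolase, on its row ENSMUSG00000030695, had 96.9, 101.0 and 97.3 FPKM in libraries labelled PELI2 knockout, against 71.2, 87.2 and 80.2 FPKM in WT (log2 difference 0.31, limma, adjusted p = 0.165). Tpi1, triose phosphate isomerase, had 46.3, 47.0 and 48.4 FPKM in libraries labelled PELI2 knockout, against 38.8, 37.4 and 45.7 FPKM in WT (log2 difference 0.22, limma, adjusted p = 0.237). In all 3 genes each library labelled PELI2 knockout stood above each WT library.

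Phosphofructokinase, the main control point of the pathway, is made from 3 isozymes. Pfkp, the platelet form, had 7.09, 6.98 and 6.53 FPKM in libraries labelled PELI2 knockout, against 6.20, 6.01 and 6.03 FPKM in WT, without overlap (log2 difference 0.15, limma, adjusted p = 0.228). Pfkm, the muscle form, had 5.64, 7.22 and 7.03 FPKM in libraries labelled PELI2 knockout, against 4.48, 5.67 and 5.71 FPKM in WT. Pfkl, the liver form, had 9.78, 9.998 and 9.30 FPKM in libraries labelled PELI2 knockout, against 9.15, 9.41 and 9.72 FPKM in WT.

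Both Pfkm and Pfkl overlapped between the groups, with 95% intervals of the log2 difference of 0.00 to 0.56 and -0.09 to 0.16. The share of Pfkl in the summed phosphofructokinase FPKM was 43.5%, 41.3% and 40.7% in libraries labelled PELI2 knockout, against 46.1%, 44.6% and 45.3% in WT, without overlap. Aldoc, the brain form of aldolase, lay near the filter at 1.39, 1.01 and 1.31 FPKM in libraries labelled PELI2 knockout, against 1.28, 1.55 and 0.640 FPKM in WT, and made up 0.987% to 1.41% of the aldolase sum in libraries labelled PELI2 knockout and 0.791% to 1.76% in WT.

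In lower glycolysis, which earns the ATP, 4 of 5 genes were higher with an unadjusted p under 0.05 and 0 lower, against 9.2% and 8.88% of all tested genes. Pgam1, phosphoglycerate mutase, had 59.2, 59.8 and 52.8 FPKM in libraries labelled PELI2 knockout, against 46.5, 47.0 and 45.8 FPKM in WT (log2 difference 0.29, limma, adjusted p = 0.142). Eno1, enolase, had 71.0, 72.2 and 69.9 FPKM in libraries labelled PELI2 knockout, against 55.7, 58.8 and 62.1 FPKM in WT (log2 difference 0.27, limma, adjusted p = 0.142). The spread of Eno1 within each group was smaller than the gap between them.

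Pgk1, phosphoglycerate kinase, the first step that returns ATP, had 77.4, 79.0 and 78.7 FPKM in libraries labelled PELI2 knockout, against 62.0, 65.4 and 71.8 FPKM in WT (log2 difference 0.24, limma, adjusted p = 0.170). Pkm, the pyruvate kinase of most tissues, had the highest FPKM of lower glycolysis, with 116.7, 117.4 and 120.1 FPKM in libraries labelled PELI2 knockout, against 100.2, 103.2 and 110.7 FPKM in WT (log2 difference 0.17, limma, adjusted p = 0.208). The groups did not overlap in either gene, although WT replicate 3 came close in both.

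The pyruvate made by these steps goes to lactate or to mitochondria. Ldha, the lactate dehydrogenase subunit of muscle, had 94.5, 95.6 and 103.7 FPKM in libraries labelled PELI2 knockout, against 83.8, 84.5 and 99.4 FPKM in WT, with overlap. Ldhb, the heart subunit, had 11.0, 9.56 and 10.8 FPKM in libraries labelled PELI2 knockout, against 5.64, 9.23 and 5.54 FPKM in WT (log2 difference 0.58, standard error 0.18, limma, adjusted p = 0.197). WT replicate 2 nearly reached the libraries labelled PELI2 knockout, so the groups were apart by a small margin only. Its share of the Ldha and Ldhb sum was 9.10% to 10.4% in libraries labelled PELI2 knockout and 5.28% to 9.85% in WT, with overlap. Pdk1, a kinase that holds pyruvate dehydrogenase inactive, stood at 5.12 to 5.51 FPKM in libraries labelled PELI2 knockout and 4.89 to 5.54 FPKM in WT, with a 95% interval of the log2 difference of -0.13 to 0.17.

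Carriers and regulators held the members that were lower with an unadjusted p under 0.05. Slc16a1 (ENSMUSG00000032902, chromosome 3, 104638668 to 104658462), the MCT1 carrier of lactate and pyruvate, had 47.1, 52.3 and 48.9 FPKM in libraries labelled PELI2 knockout, against 62.7, 57.0 and 57.0 FPKM in WT. The groups lay apart (log2 difference -0.25, standard error 0.063, limma adjusted p = 0.164). Slc16a3, the MCT4 carrier of glycolytic cells, had 8.43, 9.44 and 11.1 FPKM in libraries labelled PELI2 knockout, against 7.19, 10.3 and 8.25 FPKM in WT, and Slc16a1 made up 81.5% to 84.8% of the pair in libraries labelled PELI2 knockout and 84.7% to 89.7% in WT, with overlap.

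The glucose carriers did not separate the groups. Slc2a1, known as GLUT1, had 13.2, 12.3 and 13.4 FPKM in libraries labelled PELI2 knockout, against 10.6, 13.7 and 10.9 FPKM in WT. Slc2a3, known as GLUT3, had 24.0, 25.8 and 28.6 FPKM in libraries labelled PELI2 knockout, against 20.4, 22.6 and 27.6 FPKM in WT. Slc2a3 made up a mean of 66.8% of the pair in libraries labelled PELI2 knockout and 66.5% in WT.

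Pfkfb3 and Pfkfb4 encode bifunctional enzymes that set the level of an activator of phosphofructokinase. Pfkfb3 had 13.7, 13.6 and 13.5 FPKM in libraries labelled PELI2 knockout, against 17.5, 14.3 and 15.8 FPKM in WT (log2 difference -0.20, limma, adjusted p = 0.235). Pfkfb4 had 8.87, 8.99 and 8.75 FPKM in libraries labelled PELI2 knockout, against 6.12, 9.11 and 7.92 FPKM in WT, with overlap. Their sum was slightly lower, at 22.3 to 22.6 FPKM in libraries labelled PELI2 knockout and 23.4 to 23.7 FPKM in WT, and the share of Pfkfb3 was 60.7%, 60.2% and 60.8% in libraries labelled PELI2 knockout, against 74.1%, 61.1% and 66.6% in WT. The shares did not overlap, with WT replicate 2 close to the libraries labelled PELI2 knockout.

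**Figure D3:**
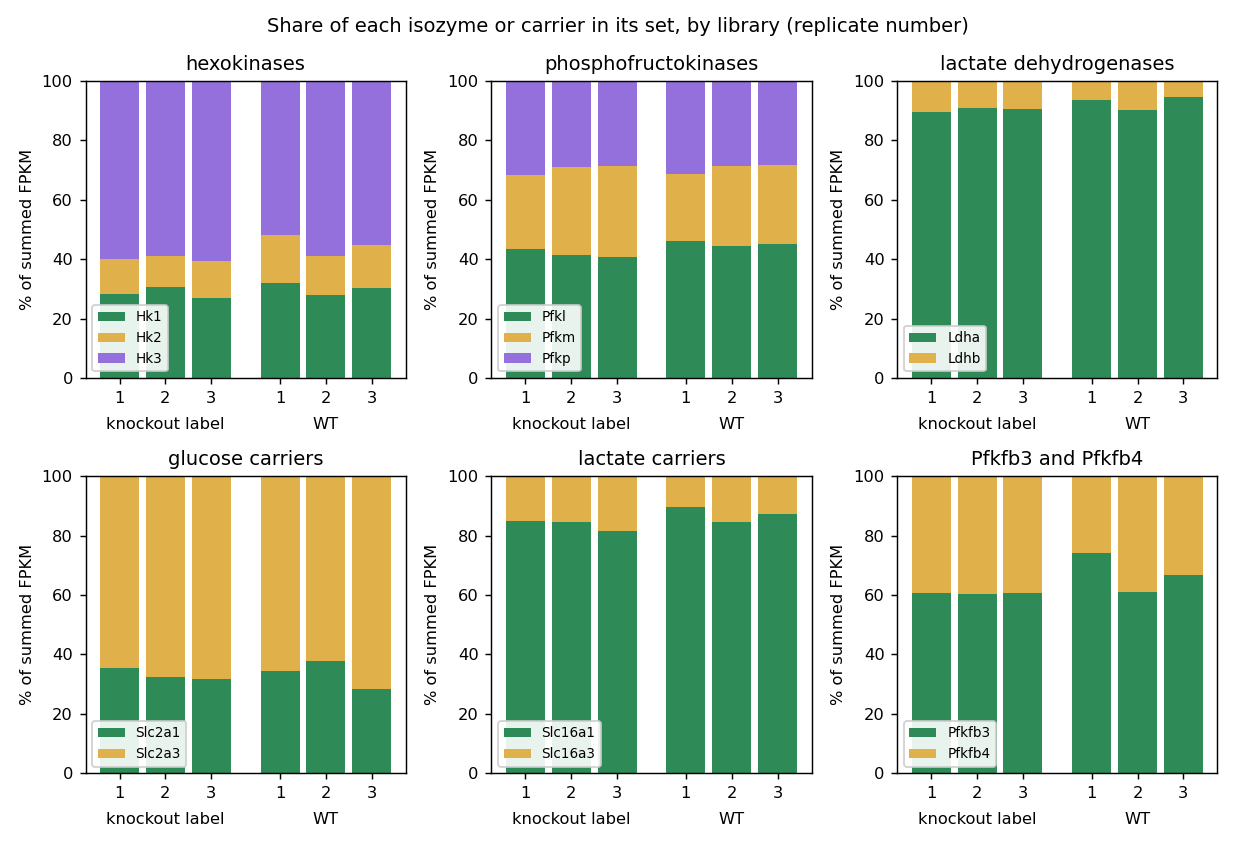
Bars give the share (%) of each isozyme or carrier in the summed FPKM of its set, with libraries labelled PELI2 knockout left of WT and the replicate number under each bar. Hk3 is 58.9% to 60.7% of the hexokinases in libraries labelled PELI2 knockout and 52.0% to 58.7% in WT, and Pfkfb3 is 60.2% to 60.8% of its pair in libraries labelled PELI2 knockout and 61.1% to 74.1% in WT.

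The oxidative arm of the pentose phosphate pathway held the member with the largest difference. G6pdx (ENSMUSG00000031400, chromosome X, 74409483 to 74429194), glucose phosphate dehydrogenase, is the entry to the pathway and its first source of NADPH. It had 52.8, 56.1 and 44.8 FPKM in libraries labelled PELI2 knockout, against 30.1, 33.3 and 33.02 FPKM in WT. The lowest library labelled PELI2 knockout stood above the highest WT library by more than the range of WT. The means were 51.2 ± 5.81 FPKM in libraries labelled PELI2 knockout and 32.2 ± 1.76 FPKM in WT (SD, n = 3 each), a ratio of 1.59 and a log2 difference of 0.65 with a standard error of 0.090 (limma, adjusted p = 0.0908). Without PELI2_knockout replicate 3, the lowest of its group, G6pdx passed, with a log2 difference of 0.74 (limma, adjusted p = 0.0393), in a fit that called 16 genes over the whole table. Without any of the other libraries it did not pass, with log2 differences of 0.58 to 0.68 and a limma adjusted p of 0.143 to 0.358.

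Pgd, the enzyme of the arm that releases carbon dioxide and more NADPH, had 34.8, 35.5 and 34.7 FPKM in libraries labelled PELI2 knockout, against 25.8, 29.6 and 29.7 FPKM in WT (log2 difference 0.30, limma, adjusted p = 0.142). Pgls, the lactonase between these enzymes, stood on the other side, with 92.2, 89.1 and 88.9 FPKM in libraries labelled PELI2 knockout, against 119.8, 92.5 and 97.6 FPKM in WT. The Pgls groups did not overlap, but the margin was small and the unadjusted p = 0.1002 in limma. The 3 enzymes of this short arm therefore did not all lie on the same side.

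In the non-oxidative arm, Tkt, transketolase, had 67.3, 71.0 and 68.3 FPKM in libraries labelled PELI2 knockout, against 48.9, 56.0 and 59.0 FPKM in WT (log2 difference 0.33, limma, adjusted p = 0.150). Taldo1, transaldolase, had 126.6, 125.6 and 137.6 FPKM in libraries labelled PELI2 knockout, against 98.1, 116.9 and 123.2 FPKM in WT, the highest group means of all members, without overlap but with an unadjusted p = 0.0624 in limma. Rpia and Rpe, which interconvert the pentose phosphates, overlapped between the groups. Rpia stood at 17.0 to 18.6 FPKM in libraries labelled PELI2 knockout and 15.9 to 17.4 FPKM in WT, and Rpe at 11.7 to 12.3 FPKM in libraries labelled PELI2 knockout and 9.74 to 11.8 FPKM in WT.

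**Figure D4:**
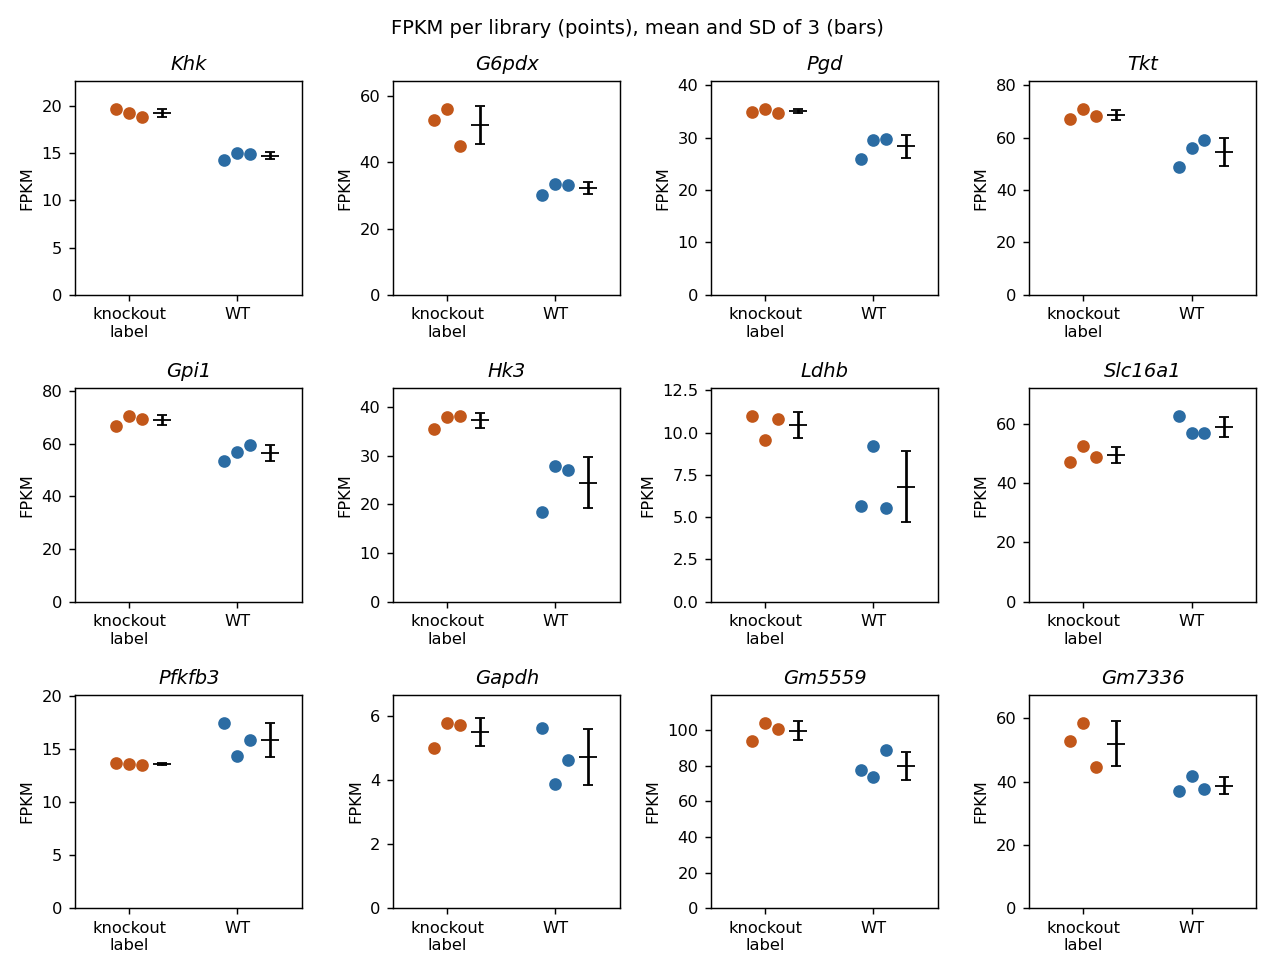
Panels give the FPKM of 12 rows by library, libraries labelled PELI2 knockout left of WT, each with its own axis and bars for the mean and SD of each group (n = 3). Khk, G6pdx, Pgd, Tkt, Gpi1, Hk3 and Ldhb are higher in every library labelled PELI2 knockout, Slc16a1 and Pfkfb3 are lower, and the Gapdh row stays between 3.87 and 5.79 FPKM while the pseudogene rows Gm5559 and Gm7336 lie between 37.0 and 104.3 FPKM.

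The Gapdh row was unusually low for its gene. Gapdh (ENSMUSG00000057666, chromosome 6, 125161715 to 125166467), the dehydrogenase of glycolysis that most tissues express at very high levels, had 4.98, 5.79 and 5.71 FPKM in libraries labelled PELI2 knockout, against 5.61, 3.87 and 4.63 FPKM in WT. The groups overlapped (log2 difference 0.20, limma, adjusted p = 0.429). By mean FPKM the row held rank 8030 of 12953 tested genes, while its neighbours in the pathway, Tpi1 and Pgk1, held ranks 1224 and 670.

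Gapdh has many processed pseudogenes, copies of its messenger RNA in the genome that reads of 50 bases often cannot tell from the gene. Of the 1371 words of 50 bases in the longest coding Gapdh transcript of GENCODE M21, 1131 or 82.5% also stood in transcripts of 222 other genes, 215 of them pseudogenes. Of these pseudogenes 114 had a row, and their summed FPKM was 162.6, 182.3 and 160.0 in libraries labelled PELI2 knockout, against 128.3, 135.8 and 149.1 in WT. In every library this sum lay above the FPKM of each other member of lower glycolysis.

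A pair of these rows, chosen after their values were seen, held most of the sum. Gm5559 (ENSMUSG00000096617, chromosome 5, 95861714 to 95862715) shares 903 words with Gapdh and gave 58.7% of the sum, with 93.9, 104.3 and 100.6 FPKM in libraries labelled PELI2 knockout, against 77.5, 73.8 and 88.9 FPKM in WT (log2 difference 0.31, limma, adjusted p = 0.168). Gm7336 (ENSMUSG00000078636, chromosome 7, 51746647 to 51747878) shares 1131 words and gave 29.6% of the sum, with 52.7, 58.6 and 44.5 FPKM in libraries labelled PELI2 knockout, against 37.0, 41.7 and 37.5 FPKM in WT (log2 difference 0.41, limma, adjusted p = 0.166). In both rows each library labelled PELI2 knockout stood above each WT library. How the authors' counting divided reads between Gapdh and these rows was not tested, and the Gapdh row alone is uncertain.

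Other members share sequence with copies as well, and their rows are uncertain to that extent. The shared words made up 72.2% of Eno1, with its copy Eno1b sharing the most, 68.0% of Pgk1, 41.5% of Pgam1, 34.4% of Pkm, 27.0% of Ldhb and 25.3% of Gpi1. The rows of pseudogenes that share words with Eno1, Pgk1 and Pgam1 were low, at sums of 1.26 to 3.39, 0.315 to 0.970 and 1.06 to 2.45 FPKM over the 6 libraries. Eno1b is not in the Eno1 sum. The copies of Pkm, Ldhb and Gpi1 were not summed, so their levels are not given here. G6pdx shared 10.7% of its words, with G6pd2, which has no row, and with the overlapping gene Ikbkg, which stood at 6.36 to 7.09 FPKM in libraries labelled PELI2 knockout and 6.94 to 7.02 FPKM in WT. Of the 34 rows 20 shared under 5% of their words, and 16, among them Khk, Hk3, Pgd, Tkt and Slc16a1, shared none.

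**Figure D5:**
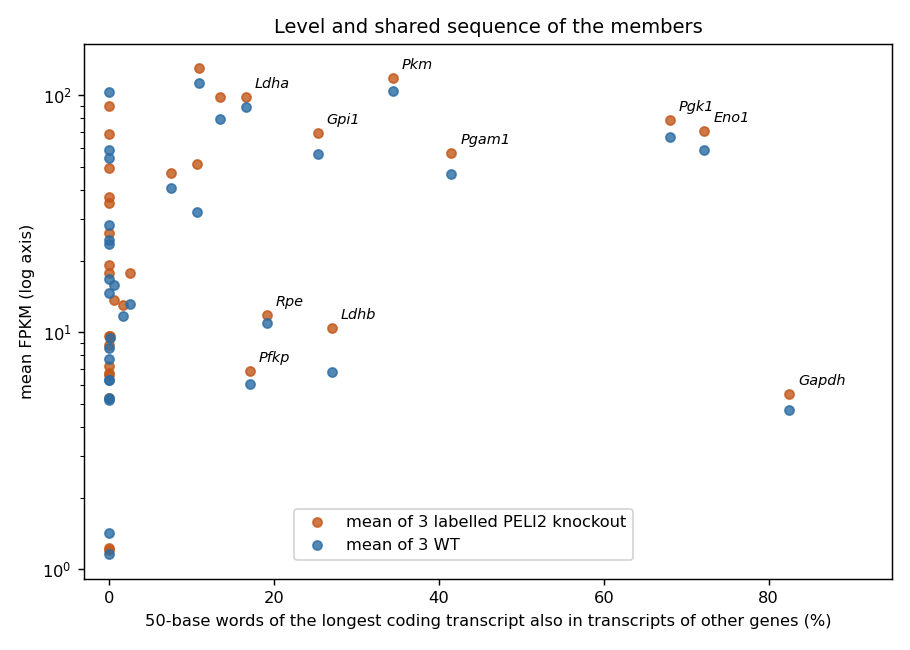
The horizontal axis is the share (%) of the 50-base words of a member's longest coding transcript that also stand in transcripts of other genes, and the vertical axis is the mean FPKM on a log scale, with the 3 libraries labelled PELI2 knockout in orange and the 3 WT libraries in blue. Gapdh has the highest share, 82.5%, and lies at 5.49 FPKM in libraries labelled PELI2 knockout and 4.70 FPKM in WT, while Eno1 and Pgk1, at 72.2% and 68.0%, lie at 58.9 FPKM or above in both groups.

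The promoters of 5 members are shown because these genes had the smallest p among the rows that were higher (Khk, G6pdx, Gpi1 and Eno1) or lower (Slc16a1). Each is the RefSeq window on GRCm38.p6 from 250 bases before to 50 bases after the annotated start, written 5′ to 3′ on the strand of the gene. They lie at chr5:30921309-30921608 on the + strand for Khk, chrX:74428831-74429130 on the - strand for G6pdx, chr7:34230287-34230586 on the - strand for Gpi1, chr4:150236458-150236757 on the + strand for Eno1 and chr3:104638414-104638713 on the + strand for Slc16a1. Capitals mark matches on either strand to ACGTG, the core bound by hypoxia-inducible factors, and to TGACNNNGC, the core of the antioxidant response element. Overlapping matches run together.
Khk: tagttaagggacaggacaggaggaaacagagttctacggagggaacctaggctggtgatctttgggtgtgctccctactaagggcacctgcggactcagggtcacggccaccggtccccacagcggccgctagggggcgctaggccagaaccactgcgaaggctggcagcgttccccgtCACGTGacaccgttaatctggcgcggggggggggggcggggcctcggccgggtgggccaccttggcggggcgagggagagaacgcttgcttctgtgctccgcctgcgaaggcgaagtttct
G6pdx: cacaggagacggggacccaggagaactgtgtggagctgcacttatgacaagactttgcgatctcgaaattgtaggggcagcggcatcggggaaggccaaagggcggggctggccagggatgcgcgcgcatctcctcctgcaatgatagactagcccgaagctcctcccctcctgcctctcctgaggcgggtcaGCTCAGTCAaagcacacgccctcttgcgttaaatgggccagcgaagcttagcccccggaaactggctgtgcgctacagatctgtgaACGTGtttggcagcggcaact
Gpi1: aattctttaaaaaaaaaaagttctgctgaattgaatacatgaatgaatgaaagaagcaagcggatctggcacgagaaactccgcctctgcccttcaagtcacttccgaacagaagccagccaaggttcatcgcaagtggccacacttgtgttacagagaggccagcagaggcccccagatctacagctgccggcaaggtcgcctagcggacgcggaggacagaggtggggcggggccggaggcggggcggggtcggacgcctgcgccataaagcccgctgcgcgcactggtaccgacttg
Eno1: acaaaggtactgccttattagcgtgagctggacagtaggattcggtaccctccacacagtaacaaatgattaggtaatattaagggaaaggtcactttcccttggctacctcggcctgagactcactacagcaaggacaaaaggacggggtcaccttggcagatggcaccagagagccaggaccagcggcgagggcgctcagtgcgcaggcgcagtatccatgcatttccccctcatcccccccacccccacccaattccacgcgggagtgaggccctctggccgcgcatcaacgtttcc
Slc16a1: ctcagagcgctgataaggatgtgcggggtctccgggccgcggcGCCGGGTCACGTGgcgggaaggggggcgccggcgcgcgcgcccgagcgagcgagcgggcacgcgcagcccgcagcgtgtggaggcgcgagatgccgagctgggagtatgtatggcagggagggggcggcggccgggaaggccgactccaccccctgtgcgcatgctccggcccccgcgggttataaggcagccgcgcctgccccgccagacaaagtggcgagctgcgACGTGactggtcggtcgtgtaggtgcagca

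The ACGTG core stood in the windows of Khk, G6pdx and Slc16a1 and not in those of Gpi1 and Eno1, and TGACNNNGC stood in those of G6pdx and Slc16a1. RefSeq windows were matched for 32 of 33 members by Entrez ID, all but Slc2a3. Where a member had several windows, only the window whose start was closest to that of the gene was used. The background held every distinct window, also where a gene had several, so the shares were not drawn alike. Of the 32 member windows, 15 or 46.9% held ACGTG on either strand, against 19.6% of all 32817 windows. TGACNNNGC stood in 2 or 6.25%, against 12.4%. The E-box CACGTG, which contains ACGTG on both strands, stood in 4 or 12.5% of the member windows (Khk, Slc16a1, Pfkm and Ldha), against 7.15% of all windows.

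The GC box GGGCGG stood in 25 or 78.1% of the member windows, against 35.6% of all windows, and the CCAAT box in 12 or 37.5%, against 37.4%. The member windows were richer in G and C, with a median of 60.7% against 52.7% over all windows. Each match is a description of letters in the window. The rows with ACGTG lay on both sides. With an unadjusted p under 0.05 in limma, Slc16a1 and Pfkfb3 were lower and Khk, G6pdx, Hk3, Pgam1 and Pgk1 higher. The others with ACGTG (Pfkm, Hk2, Ldha, Gapdh, Slc2a1, Pgm2, Slc16a3 and Aldoc) had a higher mean and did not pass that threshold. The members without ACGTG that passed it were all higher, namely Gpi1, Eno1, Pgd, Tkt, Hk1, Aldoa, Ldhb, Pkm, Pfkp and Tpi1.

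Of the genes next to the members in metabolism 0 passed an adjusted p under 0.05 in limma, and the counts with an unadjusted p under 0.05 are given by branch, to be read beside the background above. Of 9 tested other genes of glycolysis, 3 were higher with an unadjusted p under 0.05 and 0 lower, with a median log2 difference of 0.14. They were Pklr, the pyruvate kinase of red cells and liver, Eno1b, and Adpgk, a kinase of glucose that spends ADP. How reads were divided between Eno1 and its copy Eno1b was not tested. Pklr had 8.89, 11.5 and 7.94 FPKM in libraries labelled PELI2 knockout, against 3.37, 5.95 and 5.95 FPKM in WT, without overlap (log2 difference 0.80, limma, adjusted p = 0.171). Adpgk averaged 34.1 FPKM in libraries labelled PELI2 knockout and 27.8 FPKM in WT (log2 difference 0.30, limma, adjusted p = 0.220).

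Of 5 tested other carriers 1 was higher with an unadjusted p under 0.05, with a median of 0.16. It was Bsg, basigin, the partner that MCT1 and MCT4 need to reach the cell surface, at 115.8, 134.1 and 115.3 FPKM in libraries labelled PELI2 knockout, against 85.0, 102.5 and 104.8 FPKM in WT (log2 difference 0.32, limma, adjusted p = 0.209). Bsg thus lay on the opposite side to Slc16a1, its partner. Of 15 genes of fructose, mannose and glycogen 3 were higher and 0 lower, with a median of 0.05, and the lowest p belonged to Gys1, glycogen synthase, at a mean of 8.73 FPKM in libraries labelled PELI2 knockout and 6.67 FPKM in WT (log2 difference 0.34, limma, adjusted p = 0.142).

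The branch from pyruvate into mitochondria held fewer such genes. Of 11 tested genes 0 passed an unadjusted p of 0.05 in limma, 5 had a higher and 6 a lower mean, and the median was -0.03. Of 6 other pentose phosphate genes 0 were higher and 1 lower, Prps2, which makes the activated ribose for nucleotides, at a mean of 21.3 FPKM in libraries labelled PELI2 knockout and 24.3 FPKM in WT (log2 difference -0.18, limma, adjusted p = 0.216). Of 12 regulators of glycolysis 0 passed an unadjusted p of 0.05 in limma, with a median of -0.03. Of 12 other genes known to respond to hypoxia 1 was higher, Ero1l, an oxidase of the endoplasmic reticulum, and 0 lower, with a median of -0.005.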

How the data were processed

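RNA of 6 libraries was sequenced as single-end reads of 50 bases, per the labels' protocols, after purification with oligo(dT) beads. Per the submitters' processing notes, the build was GRCm38.p6 and the tools included RSEM 1.2.12, HISAT2 2.0.4, DESeq2 1.4.5 and Bowtie2 2.2.5, whose roles are not given. Use of strand is not stated. The deposited table gives the authors' FPKM per gene and library, so no count model was run here.

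Genes with FPKM of at least 1 in at least 3 libraries were fitted on log2(FPKM + 1), a scale that understates changes of low genes, with limma 3.58.1 in R 4.3.3 (lmFit, eBayes with trend, two-sided, no replicate block), and p-values were adjusted by Benjamini-Hochberg over all 12953 genes. The fit was also run on simulated data, and the outcome is not given here. The members and all gene lists were chosen with earlier results of these data known. Every member is named, with values per library for those with an unadjusted p under 0.05, Gapdh and isozyme sets, and up to 4 genes with the smallest p of each other pathway list may be named.

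Depth was read from FPKM steps of genes with 1 transcript, where 99.2% to 99.4% of values under 6 reads came out whole within 0.03 reads. At the lowest depth 1 FPKM on 1 kb is 16.6 reads. Shared sequence was counted as words of 50 bases, on both strands, in GENCODE M21 transcripts. Positions are those of the table, on GRCm38, and 33 of 34 member rows have identical coordinates in GENCODE M21. Alternatives were a pseudocount of 0.1 or 0.5, a filter of 5 FPKM or none, 3 other scalings, eBayes without trend, library weights, a replicate block and each library left out. Scripts ran in Python 3.11.15.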

Additional observations from a re-analysis of the deposited data

How the results depend on the processing

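Of 542 member values under the alternatives, 536 kept their direction and their side of the threshold. The exceptions were G6pdx, called without PELI2_knockout replicate 3, and 5 changes of sign in members near 0. Those were Pdk1 at -0.043 and Pfkl at -0.033 when libraries were rescaled to a common total, Pdk1 at -0.002 without PELI2_knockout replicate 2 and -0.01 without WT replicate 1, and Aldoc at -0.114 without WT replicate 3, and their cause was not tested. Over the fits that leave out a library Pdk1 reached 0.065 and Aldoc 0.204 at the highest. Genes called over the whole table numbered 1 with a filter of 5 FPKM, which tests 8185 genes, and 6 with eBayes without trend, against 3 in the reported fit. Leaving out each library in turn gave 2 to 16 genes called, 0 to 1 members called, 13 to 18 members higher and 1 to 3 lower with an unadjusted p under 0.05 (6.65% to 9.89% higher and 5.34% to 9.65% lower over all tested genes), and a member median of 0.14 to 0.23. The 16 genes came without PELI2_knockout replicate 3. The single lower member came without each library labelled PELI2 knockout and without WT replicates 1 and 3. The Peli2 difference stayed between 0.395 and 0.733 FPKM without each library. With the replicate number as a block, 4 genes and 0 members were called, and 20 members were higher and 2 lower, against 10.1% and 9.14% of all tested genes. The numbers were not taken to pair the libraries: deviations of same-numbered libraries correlated at 0.10, 0.04 and 0.09, although each library correlated best with its own number. Depth limits rows near the filter, Aldoc and the lower Aldoa row, most.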

Other observations

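The Peli2 row carries sequence of the pathway described above: its transcripts in GENCODE M21 share 84 words of 50 bases with Gapdh. Gm6498, the Gapdh pseudogene whose Entrez ID the Peli2 row also lists, has a row of its own at 0 to 0.175 FPKM in libraries labelled PELI2 knockout and 0 to 0.0561 FPKM in WT. The part of the shared words in the Peli2 values, which were 2.47 to 3.07 FPKM in libraries labelled PELI2 knockout and 1.99 to 2.54 FPKM in WT, was not tested. The other Aldoa row (ENSMUSG00000114515, chromosome 7, 126800790 to 126809108), next to the main one, stood at 0.967 to 1.32 FPKM in libraries labelled PELI2 knockout and 0.979 to 1.67 FPKM in WT and shared no word with other genes. Gapdhs, the sperm form of the Gapdh enzyme, had 1.17, 1.27 and 0.963 FPKM in libraries labelled PELI2 knockout, against 1.96, 1.42 and 1.30 FPKM in WT, without overlap (log2 difference -0.26, limma, adjusted p = 0.353).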
